A study of Mus musculus with 12 samples.

Results

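The genes described here are those of the mitochondrial respiratory chain in mouse jejunum. They were chosen by name alone: every probe set with a single platform gene symbol beginning Nduf, Uqcr, Cox4, Cox5, Cox6, Cox7, Cox8 or Atp5, or equal to Sdha, Sdhb, Sdhc, Sdhd or Cycs, with the probe set of highest mean kept for each gene. The rule gave 90 genes of the 19938 measured. Of these, 81 encode subunits: 34 of complex I, 4 of complex II, 8 of complex III, cytochrome c itself, 17 of complex IV (Ndufa4, now assigned to that complex, included) and 17 of complex V. A further 7 are complex I assembly factors whose names share the Nduf prefix. The remaining 2, Ndufa4l2 and Cox7a2l, are relatives of subunits and were kept apart. All 90 were tested, with no filter on low signal. Genes encoded by mitochondrial DNA, and subunits whose symbols start otherwise, are outside the rule.

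The respiratory chain sits in the inner mitochondrial membrane. Complex I takes electrons from NADH and complex II takes them from succinate, complex III passes them through cytochrome c to complex IV, which reduces oxygen, and the proton gradient built on the way drives ATP synthesis by complex V. In the small intestine the absorptive cells of the villus are rich in mitochondria, and smooth muscle of the gut wall contributes its own.

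The study asked how loss of Fgfr1op, a centrosomal gene whose current symbol is Cep43, affects the intestine. Whole jejunum was taken from wild-type (WT) mice and from Fgfr1op knockout (KO) mice on day 6, day 9 or day 12 of the scale the labels call post-tamoxifen, with 2 mice in each of the 6 groups and 1 array per mouse. The protocol attached to both genotypes gives intraperitoneal tamoxifen at 75 mg per kg for 5 days in a row. The recombinase driver, strain and age were not stated in the sources used here, and injection of the WT mice is not mentioned separately. The KO groups share the label of the knockout and differ by day, and each is set against the WT group of its day. RNA was polyA RNA of the whole tissue, so muscle, connective tissue and immune cells are in each value.

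Values are log2 signals of Affymetrix Mouse Gene 1.0 ST arrays, a 1-colour array with 1 value per probe set. The 12 arrays had medians of 5.95 to 6.02, and arrays of the same group had correlations of 0.992 to 0.997 over genes. The signal of Cep43 was lower in KO by -0.31 (SE 0.11) at day 6, -0.39 (SE 0.11) at day 9 and -0.09 (SE 0.11) at day 12, and passed the test at day 9 only (limma adjusted p = 0.0184). Absorptive enterocyte markers were bright, with lactase (Lct) between 11.50 and 12.41 in the 6 WT arrays. Differences are KO minus WT of the same day on the log2 scale, with standard error (SE) from a limma fit to all 12 arrays and p-values adjusted by the Benjamini-Hochberg method over 19938 genes; a gene is called at an adjusted p under 0.05. With 2 mice per group an exact permutation test at a single day cannot go below p = 0.333.

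Among the respiratory chain genes called at days 9 and 12, most were lower in the KO jejunum, while many of the 90 did not pass. At day 6, 1 of the 90 rose (Cox6b2) and 1 fell (Cox7a1), where 0.597% of all genes rose and 0.431% fell (1.03% called in all). At day 9, 28 fell and 6 rose, where 17.1% of all genes fell and 12.6% rose (29.7% called in all). At day 12, 47 fell and 1 rose, where 13.7% of all genes fell and 13.7% rose (27.3% in all). The median difference of the 90 genes went from -0.07 at day 6 to -0.22 at day 9 and -0.37 at day 12, while the medians of all genes were 0.00, 0.02 and 0.02. The KO arrays lay below both WT arrays of the same day for 33 of the 90 genes at day 6, 54 at day 9 and 68 at day 12, where 20.9%, 31.1% and 26.6% of all genes did so. For 23 genes this held at all 3 days, against 6.86% of all genes. Permuting genotype within days, an exact test of the average has a smallest possible p of 0.00926. A gene ordered in this way at all 3 days reaches that p by its ordering alone, so the p adds nothing to the count. The KO arrays lay above both WT arrays for 2 genes at day 6, 15 at day 9, 4 at day 12 and 0 at all 3 days, where 23.7%, 34.6%, 31.6% and 7.68% of all genes did. The count at day 9 was 22 without WT day 9 replicate 1, in place of 34, and that at day 6 was 0 without WT replicate 1 or either KO array of that day and 1 without WT replicate 2 of day 6 or either WT array of day 9, in place of 2.

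**Figure D1:**
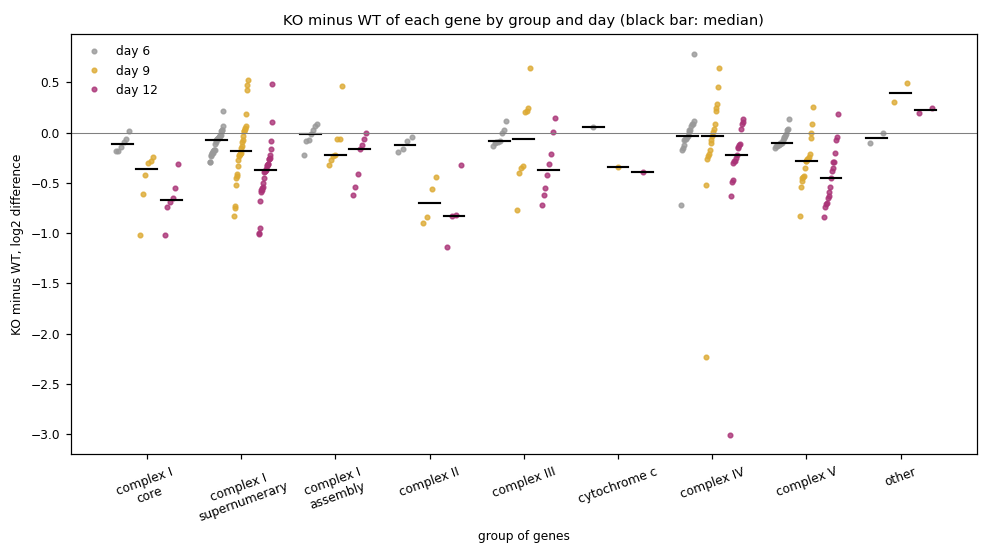
KO minus WT log2 difference (vertical axis) of each of the 90 genes at days 6, 9 and 12, in columns by complex or role, with a black bar at each median. Complex II had the lowest medians of the groups shown, -0.70 at day 9 and -0.83 at day 12, and the isolated low points in complex IV are Cox7a1 at -2.23 and -3.01.

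The 2 KO mice of a day did not stand at the same level. At day 9 the first KO mouse was higher than the second in 70 of the 90 genes, with a median gap of 0.15, and at day 12 in 72 of the 90, with a median gap of 0.21. In WT the same gap had medians of 0.03, 0.01 and -0.01 at days 6, 9 and 12. The day 6 KO mice had a median gap of -0.10. The gap was uneven among the complexes: at day 9 its median was 0.27 in complex III and 0.05 in complex II. The same gap was not taken over all genes, so whether it is particular to these genes is not known.

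**Figure D2:**
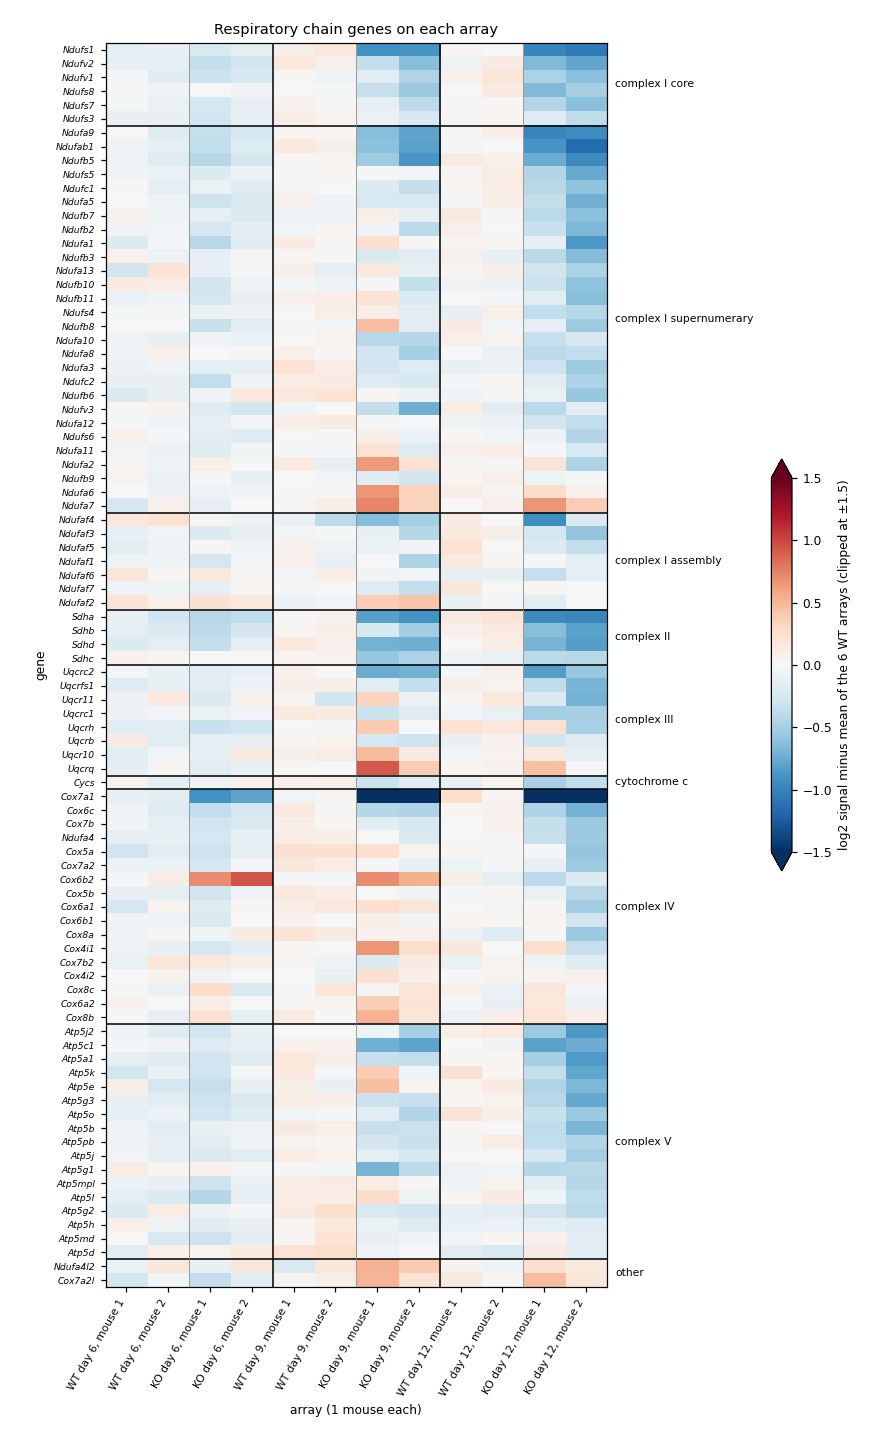
Log2 signal of the 90 genes on each of the 12 arrays, as the difference from the mean of the 6 WT arrays (colour scale, clipped at 1.5 in either direction), grouped by complex. Blue cells, lower than WT, fill most of the KO columns of day 12 (mouse 1 at a mean of -0.29 and mouse 2 at -0.48 over the 90 genes), while the KO columns of day 9 (-0.07 and -0.23) mix blue and red.

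In whole tissue, fewer cells of a type and less RNA per cell cannot be told apart. Marker lists of cell types were therefore read on the same arrays, as list means relative to the WT arrays. Beside their counts, 0.431% of all genes fell and 0.597% rose at day 6. The shares were 17.1% and 12.6% at day 9, and 13.7% and 13.7% at day 12. Of 12 absorptive enterocyte markers 1 fell at day 6, 7 fell at day 9, and 8 fell and 1 rose at day 12. The list mean lay between -0.16 and 0.11 in WT. In KO it lay at -0.18 and -0.23 at day 6, at -1.41 and -1.23 at day 9 and at -1.75 and -1.22 at day 12. The median differences were smaller, 0.02, -0.58 and -1.09 at days 6, 9 and 12. The largest falls at days 9 and 12 were those of Lct (-5.59 and -6.32) and Mep1a (-4.02 and -3.22). The rise at day 12 was that of Alpi (0.42), and Apoa4 and Mgam passed at no day. General epithelial markers (12 genes) had 4 rises and 1 fall at day 9 and 3 rises and 3 falls at day 12. Smooth muscle markers (15 genes) had 1 fall at day 6 (14 of 15 with an unadjusted p under 0.05, median difference -1.44), no call at day 9 (limma, 0 of 15 with an unadjusted p under 0.05) and 1 rise at day 12 (2 of 15 with an unadjusted p under 0.05, median 0.48). Their mean was 0.62 and -0.07 in WT against -0.98 and -1.16 in KO at day 6, -0.80 and -0.06 against 0.17 and -0.86 at day 9, and 0.11 and 0.21 against 0.96 and 0.54 at day 12. Of 13 immune cell markers 2 rose and 2 fell at day 9, near the shares of all genes, and 7 fell at day 12. Of 9 fibroblast and endothelial markers 3 rose at day 9 and 3 at day 12. The part of these shifts in the respiratory chain values was not tested, except that with the smooth muscle mean as a covariate, chosen after seeing the data, 0 of the 90 genes were called at day 6 and 10 by the interaction test, in place of 2 and 21.

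Complex II, succinate dehydrogenase, is both an enzyme of the citric acid cycle and an entry point for electrons, and all 4 of its subunits are encoded in the nucleus. All 4 fell at day 9 and at day 12, where 17.1% and 13.7% of all genes fell. The test of a genotype by day interaction called each of them, where it called 21 of the 90 genes and 18.5% of all genes. Sdha, the flavoprotein that oxidises succinate, measured 11.79 and 11.60 at day 6, 11.92 and 11.96 at day 9, and 12.03 and 12.10 at day 12 in WT. KO arrays of Sdha read 11.47 and 11.52, 11.08 and 11.00, and 10.94 and 10.92 in the same order. The KO arrays were the lower ones at each day, and the gap widened after day 6. Sdha differed by -0.20 (SE 0.09, adjusted p = 0.426) at day 6, -0.90 (SE 0.09, adjusted p = 2.68e-05) at day 9 and -1.13 (SE 0.09, adjusted p = 3.42e-06) at day 12, which left 53.6% and then 45.5% of the WT signal. Sdhb, the iron-sulfur subunit, measured 10.31 and 10.25 at day 6, 10.48 and 10.55 at day 9, and 10.53 and 10.60 at day 12 in WT. KO arrays of Sdhb read 10.06 and 10.17, 10.21 and 9.93, and 9.82 and 9.65 in the same order. Its groups did not overlap at any day, with the lower KO array of day 9 at 9.93. Sdhb fell at days 9 and 12, with differences of -0.45 (SE 0.11, adjusted p = 0.0101) and -0.83 (SE 0.11, adjusted p = 0.000162).

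Sdhc and Sdhd are the membrane anchors of the complex, where ubiquinone is reduced. Sdhc, the larger anchor, measured 10.72 and 10.68 at day 6, 10.71 and 10.71 at day 9, and 10.58 and 10.56 at day 12 in WT. KO arrays of Sdhc read 10.66 and 10.65, 10.09 and 10.20, and 10.26 and 10.24 in the same order. The KO arrays lay just under WT at day 6 and well under it at days 9 and 12. Sdhc fell at days 9 and 12, with differences of -0.56 (SE 0.08, adjusted p = 0.000381) and -0.32 (SE 0.08, adjusted p = 0.0129). Sdhd, the smaller anchor, measured 10.66 and 10.72 at day 6, 11.02 and 10.94 at day 9, and 10.86 and 10.97 at day 12 in WT. KO arrays of Sdhd read 10.50 and 10.72, 10.15 and 10.13, and 10.16 and 10.04 in the same order. WT and KO overlapped at day 6 only. Sdhd fell at days 9 and 12, with differences of -0.84 (SE 0.10, adjusted p = 8.54e-05) and -0.82 (SE 0.10, adjusted p = 8.61e-05). The day 9 call of Sdhb ended without WT day 9 replicate 2 (-0.41) or KO day 9 replicate 2 (-0.30), and the day 12 call of Sdhc ended without WT day 12 replicate 1 (-0.30) or 2 (-0.33). With quantile normalization the complex II median was -0.19 in place of -0.12 at day 6.

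**Figure D3:**
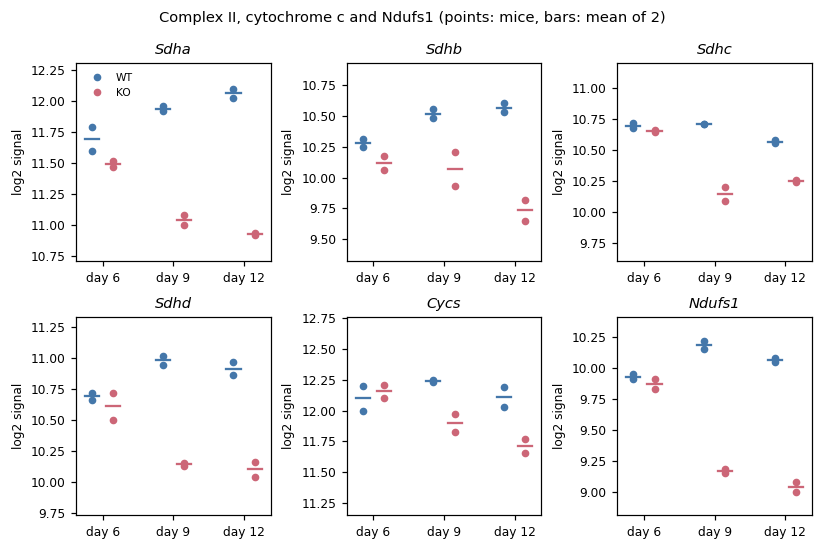
Log2 signal (vertical axis) of the complex II genes, of Cycs and of the complex I gene Ndufs1 by day, with 1 point per mouse and a bar at the mean of 2. At days 9 and 12 the KO points lie below the WT points in every panel, with Sdha at 10.92 and 10.94 in KO at day 12 against 12.03 and 12.10 in WT.

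Promoters of the complex II genes are shown because all 4 genes fell together. Each sequence is the 250 bases before the transcription start, read toward the gene, from RefSeq on GRCm38.p6, and entries were found for Sdha, Sdhb and Sdhd. Capitals mark matches on either strand to GCATGCGC (bound by NRF1), CCGGAAG (ETS factors such as GABPA) or CCAAT (NFY), factors known for nuclear genes of the respiratory chain; none of these strings contains another.
Sdha promoter, chr13:74350241-74350490, minus strand: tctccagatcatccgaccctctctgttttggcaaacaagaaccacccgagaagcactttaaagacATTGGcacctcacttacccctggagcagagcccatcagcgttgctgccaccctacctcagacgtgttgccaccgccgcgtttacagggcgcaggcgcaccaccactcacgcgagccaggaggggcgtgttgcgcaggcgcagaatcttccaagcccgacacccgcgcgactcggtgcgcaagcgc
Sdhb promoter, chr4:140961021-140961270, plus strand: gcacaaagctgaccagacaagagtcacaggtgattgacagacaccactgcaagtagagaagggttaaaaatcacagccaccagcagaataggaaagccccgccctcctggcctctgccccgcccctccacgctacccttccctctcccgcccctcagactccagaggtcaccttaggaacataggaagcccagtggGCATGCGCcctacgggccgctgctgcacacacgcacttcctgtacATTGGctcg
Sdhd promoter, chr9:50603850-50604099, minus strand: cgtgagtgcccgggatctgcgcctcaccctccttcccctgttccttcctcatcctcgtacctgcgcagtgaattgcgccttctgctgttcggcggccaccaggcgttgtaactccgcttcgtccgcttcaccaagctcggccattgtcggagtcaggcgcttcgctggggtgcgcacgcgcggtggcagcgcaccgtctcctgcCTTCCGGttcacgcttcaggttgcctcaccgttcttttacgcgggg
The 3 windows held different strings: CCAAT (as ATTGG) for Sdha, GCATGCGC with CCAAT for Sdhb and CCGGAAG (as CTTCCGG) for Sdhd.

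Complex I is the largest entry point, with core subunits that carry the flavin and the iron-sulfur clusters and supernumerary subunits around them. At day 9 its 34 subunits had 10 falls and 2 rises (median -0.22), where 17.1% of all genes fell and 12.6% rose. At day 12 it had 21 falls and 1 rise (median -0.39), where 13.7% of all genes fell and 13.7% rose. Among the 6 core subunits 3 fell at day 9 (median -0.36) and 6 of 6 fell at day 12 (median -0.67, range -1.02 to -0.32). Ndufs1, the core subunit that holds several of the iron-sulfur clusters, measured 9.91 and 9.95 at day 6, 10.15 and 10.22 at day 9, and 10.08 and 10.05 at day 12 in WT. KO arrays of Ndufs1 read 9.83 and 9.91, 9.15 and 9.18, and 9.08 and 9.00 in the same order. Day 6 values overlapped, and the KO arrays then stood far under WT at both later days. Ndufs1 differed at days 6, 9 and 12 by -0.06 (SE 0.08, adjusted p = 0.876), -1.02 (SE 0.08, adjusted p = 5.52e-06) and -1.02 (SE 0.08, adjusted p = 4.04e-06), so the KO signal was 49.3% of WT at day 9 and 49.3% at day 12. The other core subunits had smaller falls at day 12: Ndufv2 differed by -0.74, Ndufv1, which binds NADH and flavin, by -0.69, Ndufs8 by -0.65, Ndufs7 by -0.55 and Ndufs3 by -0.32. Without KO day 12 replicate 1 the complex I median at day 12 was -0.56.

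Of the 28 supernumerary subunits, 7 fell and 2 rose at day 9, where 17.1% of all genes fell and 12.6% rose. At day 12, 15 fell and 1 rose, where 13.7% of all genes fell and 13.7% rose. Ndufa9, a subunit at the junction of the peripheral and membrane arms, measured 9.70 and 9.51 at day 6, 9.73 and 9.73 at day 9, and 9.71 and 9.79 at day 12 in WT. KO arrays of Ndufa9 read 9.35 and 9.44, 9.06 and 8.90, and 8.72 and 8.76 in the same order. The KO arrays were below WT at each day. Ndufa9 fell at days 9 and 12, with differences of -0.75 (SE 0.10, adjusted p = 0.000166) and -1.01 (SE 0.10, adjusted p = 1.43e-05). Ndufab1, the mitochondrial acyl carrier protein, which also serves lipoic acid synthesis, measured 9.40 and 9.33 at day 6, 9.63 and 9.56 at day 9, and 9.44 and 9.47 at day 12 in WT. KO arrays of Ndufab1 read 9.10 and 9.29, 8.86 and 8.67, and 8.59 and 8.32 in the same order. Its lowest value, 8.32, was that of the second KO mouse of day 12, and no day overlapped. Ndufab1 fell at days 9 and 12, with differences of -0.83 (SE 0.11, adjusted p = 0.000225) and -1.0 (SE 0.11, adjusted p = 4.86e-05). Ndufb5, a membrane arm subunit, measured 8.50 and 8.39 at day 6, 8.60 and 8.62 at day 9, and 8.71 and 8.65 at day 12 in WT. KO arrays of Ndufb5 read 8.15 and 8.32, 8.04 and 7.71, and 7.84 and 7.62 in the same order. WT and KO were separate at each day. Ndufb5 fell at days 9 and 12, with differences of -0.73 (SE 0.12, adjusted p = 0.000955) and -0.95 (SE 0.12, adjusted p = 0.00014).

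Ndufb10, another membrane arm subunit, measured 6.84 and 6.82 at day 6, 6.70 and 6.64 at day 9, and 6.66 and 6.62 at day 12 in WT. KO arrays of Ndufb10 read 6.44 and 6.65, 6.68 and 6.36, and 6.39 and 6.11 in the same order. KO lay below WT at days 6 and 12, and at day 9 one KO array lay among the WT values. Of the complex I subunits it had the smallest p at day 6, where none was called by limma (1 of 34 had an unadjusted p under 0.05): the difference was -0.29 (SE 0.13, adjusted p = 0.397). Ndufb10 differed by -0.39 (SE 0.13, adjusted p = 0.0386) at day 12, a call that ended without KO day 12 replicate 2 (-0.25), WT day 12 replicate 1 (-0.37) or 2 (-0.42), or any 1 WT array of day 6 or 9 (-0.39 in each case). The other supernumerary falls at day 12 ran from -0.68 for Ndufs5 to -0.26 for Ndufa12 and included Ndufc1 (-0.59), Ndufa5 (-0.57), Ndufb7 (-0.57), Ndufb2 (-0.55), Ndufb3 (-0.50), Ndufs4 (-0.38), Ndufa10 (-0.36), Ndufa8 (-0.34) and Ndufa3 (-0.32). Ndufv3 fell at day 9 (-0.52) and stood at -0.26 at day 12, where it did not pass. At neither day did Ndufa1, Ndufa2, Ndufa11, Ndufa13, Ndufb6, Ndufb8, Ndufb9, Ndufb11, Ndufc2 and Ndufs6 pass; at day 12 they lay between -0.54 and -0.09.

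A pair of supernumerary subunits rose at day 9. Ndufa6, a subunit of the peripheral arm, measured 9.00 and 8.90 at day 6, 8.98 and 8.96 at day 9, and 9.08 and 9.04 at day 12 in WT. KO arrays of Ndufa6 read 8.92 and 8.93, 9.66 and 9.33, and 9.27 and 9.06 in the same order. The KO arrays of day 9 were the highest of the 12. Ndufa6 rose by 0.52 (SE 0.12, adjusted p = 0.00517) and stood at 0.10 (SE 0.12) at day 12. Ndufa7, also of the peripheral arm, measured 6.61 and 6.93 at day 6, 6.88 and 6.94 at day 9, and 6.85 and 6.93 at day 12 in WT. KO arrays of Ndufa7 read 6.72 and 6.85, 7.59 and 7.19, and 7.52 and 7.22 in the same order. All 4 KO arrays of days 9 and 12 exceeded all WT arrays. Ndufa7 rose at days 9 and 12, by 0.48 (SE 0.15, adjusted p = 0.0331) and 0.48 (SE 0.15, adjusted p = 0.0339), the only gene of the 90 called higher at both days. The call of Ndufa6 ended without KO day 9 replicate 1 (0.36). Those of Ndufa7 ended at day 9 without KO replicate 1 (0.28) or WT replicate 1 (0.45) or 2 (0.51), and at day 12 without KO replicate 1 (0.33) or WT replicate 1 (0.44) or 2 (0.52).

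Assembly factors of complex I with Nduf names help build the complex but are not part of it. Of 7, 1 rose and 0 fell at day 9 and 3 fell at day 12, with medians of -0.22 and -0.17. At day 9, 12.6% of all genes rose and 17.1% fell, so the single rise lay near that share. At day 12, 13.7% of all genes fell. Ndufaf2, a factor of a late assembly intermediate, measured 6.36 and 6.24 at day 6, 6.08 and 6.12 at day 9, and 6.05 and 6.15 at day 12 in WT. KO arrays of Ndufaf2 read 6.40 and 6.33, 6.55 and 6.59, and 6.01 and 6.17 in the same order. At day 9 the KO arrays stood above the WT arrays of that day, and at days 6 and 12 the groups overlapped. Ndufaf2 rose by 0.47 (SE 0.09, adjusted p = 0.00309) and stood at -0.01 (SE 0.09) at day 12. Ndufaf3, a factor for early membrane modules, measured 7.52 and 7.60 at day 6, 7.61 and 7.62 at day 9, and 7.79 and 7.74 at day 12 in WT. KO arrays of Ndufaf3 read 7.44 and 7.52, 7.54 and 7.22, and 7.38 and 7.06 in the same order. KO was below WT at days 9 and 12. Ndufaf3 fell, with a difference of -0.55 (SE 0.13, adjusted p = 0.00662) at day 12. Ndufaf4, its partner in assembly, measured 8.27 and 8.33 at day 6, 7.99 and 7.71 at day 9, and 8.22 and 8.11 at day 12 in WT. KO arrays of Ndufaf4 read 8.12 and 8.03, 7.45 and 7.61, and 7.19 and 7.89 in the same order. The first KO mouse of day 12, at 7.19, was far under the second at 7.89. Ndufaf4 fell, with a difference of -0.62 (SE 0.18, adjusted p = 0.0249) at day 12 and had the smallest p of the 7 at day 6, -0.22 (SE 0.18, adjusted p = 0.75), where none of the 7 passed with limma (0 had an unadjusted p under 0.05).

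Ndufaf5, a methyltransferase-like assembly protein, measured 5.58 and 5.70 at day 6, 5.81 and 5.67 at day 9, and 5.97 and 5.76 at day 12 in WT. KO arrays of Ndufaf5 read 5.77 and 5.67, 5.65 and 5.70, and 5.53 and 5.38 in the same order. WT and KO overlapped except at day 12. Ndufaf5 fell, with a difference of -0.41 (SE 0.11, adjusted p = 0.0126) at day 12. Ndufaf1, Ndufaf6 and Ndufaf7 passed at neither day, with differences of -0.22, -0.06 and -0.27 at day 9. The day 12 calls ended without KO replicate 2 of that day for Ndufaf3 (-0.39) and Ndufaf5 (-0.34), without WT replicate 1 for Ndufaf5 (-0.30), and without KO replicate 1 (-0.28) or WT replicate 1 (-0.57) or 2 (-0.68) for Ndufaf4. Assembly factors of complex I outside the Nduf names (9 measured) had 4 falls at day 9 and 6 at day 12, where 17.1% and 13.7% of all genes fell. The falls were led by Tmem126b (-0.91, SE 0.11), Dmac2 (-0.88, SE 0.12) and the oxidoreductase-like Foxred1 (-0.79, SE 0.12) at day 9.

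Complex III, the cytochrome bc1 complex, had 4 falls and 1 rise among 8 subunits at day 9 and 3 falls at day 12. At day 9, 17.1% of all genes fell and 12.6% rose, so the single rise lay near that share, and at day 12 13.7% fell. Its median was -0.07 at day 9, where leaving out the first KO mouse of that day gave -0.16 and leaving out the second gave 0.07, and -0.37 at day 12. Uqcrc2, a core protein of the matrix side, measured 11.49 and 11.40 at day 6, 11.57 and 11.52 at day 9, and 11.48 and 11.59 at day 12 in WT. KO arrays of Uqcrc2 read 11.34 and 11.39, 10.76 and 10.80, and 10.68 and 10.94 in the same order. Every KO array lay under the WT arrays of its day. Uqcrc2 fell at days 9 and 12, with differences of -0.77 (SE 0.10, adjusted p = 0.000195) and -0.72 (SE 0.10, adjusted p = 0.000267). Uqcrc1, its partner core protein, measured 10.82 and 10.86 at day 6, 11.06 and 11.03 at day 9, and 10.86 and 10.80 at day 12 in WT. KO arrays of Uqcrc1 read 10.80 and 10.86, 10.58 and 10.71, and 10.40 and 10.41 in the same order. The groups overlapped at day 6 and were apart at days 9 and 12. Uqcrc1 fell at days 9 and 12, with differences of -0.40 (SE 0.09, adjusted p = 0.00436) and -0.42 (SE 0.09, adjusted p = 0.00306). Uqcrfs1, the Rieske iron-sulfur protein, measured 9.09 and 9.17 at day 6, 9.37 and 9.37 at day 9, and 9.38 and 9.34 at day 12 in WT. KO arrays of Uqcrfs1 read 9.12 and 9.20, 9.12 and 8.93, and 8.90 and 8.59 in the same order. One KO value of day 12, 8.59, was the lowest. Uqcrfs1 fell at days 9 and 12, with differences of -0.35 (SE 0.11, adjusted p = 0.0367) and -0.62 (SE 0.11, adjusted p = 0.0015); the day 9 call ended without KO day 9 replicate 2 (-0.25) or any 1 of the 4 WT arrays of days 9 and 12 or the 2 KO arrays of day 6 (-0.35 in each case), and with quantile normalization (-0.25).

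Uqcrb, which helps bind ubiquinone, measured 12.20 and 11.91 at day 6, 12.12 and 12.14 at day 9, and 11.97 and 12.15 at day 12 in WT. KO arrays of Uqcrb read 11.94 and 11.96, 11.82 and 11.77, and 11.79 and 11.89 in the same order. The first WT array of day 6 stood above the rest, and KO was below WT at days 9 and 12. Uqcrb fell, with a difference of -0.34 (SE 0.11, adjusted p = 0.037) at day 9 and stood at -0.22 (SE 0.11) at day 12; at day 6 it had the smallest p of the complex III genes, -0.11 (SE 0.11, adjusted p = 0.816), and none of the 8 was called by limma at that day (0 had an unadjusted p under 0.05). Its day 9 call ended without any 1 array of day 9 (-0.36 to -0.31) or either KO array of day 6 (-0.34). Uqcrq, a small subunit beside cytochrome b, measured 8.84 and 9.00 at day 6, 9.00 and 8.97 at day 9, and 9.00 and 9.04 at day 12 in WT. KO arrays of Uqcrq read 8.79 and 8.86, 9.89 and 9.36, and 9.41 and 8.94 in the same order. The KO arrays of day 9 stood above every WT array, the first far above the second. Uqcrq rose by 0.64 (SE 0.17, adjusted p = 0.0162) and stood at 0.15 (SE 0.17) at day 12; the call ended without KO replicate 1 (0.37) or WT replicate 1 (0.65) or 2 (0.62) of day 9. The other small subunits, Uqcrh, Uqcr10 and Uqcr11, stood at 0.22, 0.20 and 0.24 at day 9 and at -0.32, 0.00 and -0.55 at day 12, and did not pass. Cyc1, the cytochrome c1 of this complex, lies outside the naming rule and fell, with differences of -0.36 (SE 0.09) at day 9 and -0.77 (SE 0.09) at day 12.

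Cycs, the somatic cytochrome c that carries electrons from complex III to complex IV, measured 12.20 and 12.00 at day 6, 12.25 and 12.23 at day 9, and 12.03 and 12.19 at day 12 in WT. KO arrays of Cycs read 12.10 and 12.21, 11.83 and 11.97, and 11.66 and 11.77 in the same order. KO and WT overlapped at day 6, and the KO arrays were the lower ones at days 9 and 12. Cycs fell at days 9 and 12, with differences of -0.34 (SE 0.10, adjusted p = 0.0297) and -0.39 (SE 0.10, adjusted p = 0.0155). The day 9 call ended without WT replicate 1 (-0.33), WT replicate 2 (-0.35) or KO replicate 1 (-0.27) of that day, and the day 12 call without WT replicate 2 (-0.31) or KO replicate 1 (-0.33). The Cycs promoter is shown as a well-known target of NRF1, with GCATGCGC and CCAAT in capitals (RefSeq, GRCm38.p6).
Cycs promoter, chr6:50566570-50566819, minus strand: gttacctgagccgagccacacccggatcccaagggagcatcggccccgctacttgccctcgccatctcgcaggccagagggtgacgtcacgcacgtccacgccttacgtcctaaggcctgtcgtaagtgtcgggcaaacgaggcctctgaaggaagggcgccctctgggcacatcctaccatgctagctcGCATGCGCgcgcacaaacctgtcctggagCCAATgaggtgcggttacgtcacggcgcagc

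Complex IV, cytochrome c oxidase, had 2 falls and 1 rise among 17 genes at day 9 and 4 falls at day 12, with medians of -0.03 and -0.22. At day 9 these counts are no larger than the shares of all genes give (17.1% lower and 12.6% higher). The shares at day 12 were 13.7% lower and 13.7% higher. The day 12 median was -0.41 without KO day 12 replicate 1 and -0.03 without KO day 12 replicate 2. No test of complex IV against the other complexes was made. Cox7a1, the isoform of subunit 7a known from heart and skeletal muscle, measured 9.56 and 9.53 at day 6, 9.64 and 9.72 at day 9, and 9.93 and 9.72 at day 12 in WT. KO arrays of Cox7a1 read 8.77 and 8.89, 7.61 and 7.28, and 6.70 and 6.92 in the same order. KO arrays lay under every WT array at each day, and the KO values dropped from day to day. Cox7a1 fell at days 6, 9 and 12, with differences of -0.72 (SE 0.13, adjusted p = 0.0317), -2.23 (SE 0.13, adjusted p = 4.02e-07) and -3.01 (SE 0.13, adjusted p = 3e-08), that is 4.71-fold at day 9 and 8.06-fold at day 12. It had the largest fall of the 90 genes at each day and the smallest interaction p (adjusted p = 3.58e-05). The day 6 call ended without any 1 array of that day (-0.77 to -0.66) or either WT array of day 9 (-0.72), and with the smooth muscle covariate (-0.55); with that covariate the differences were -2.25 at day 9 and -3.09 at day 12. The smooth muscle marker mean was lower in both KO arrays than in both WT arrays at day 6 and overlapped at day 9. At day 12 it was higher in both KO arrays, with 1 of the 15 markers called higher. Beyond that covariate, chosen after seeing the data, the part of muscle or other cell types in the Cox7a1 values was not tested.

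Cox7a2, the isoform found in most tissues, was measured beside it. Its 6 WT arrays ran from 8.86 to 9.13 and its 6 KO arrays from 8.41 to 8.93. Cox7a2 stood at -0.05, -0.23 and -0.28 and passed at no day. The Cox7a1 and Cox7a2 promoters are printed to set the isoforms side by side (RefSeq, GRCm38.p6), with capitals at CCAAT on either strand.
Cox7a1 promoter, chr7:30183921-30184170, plus strand: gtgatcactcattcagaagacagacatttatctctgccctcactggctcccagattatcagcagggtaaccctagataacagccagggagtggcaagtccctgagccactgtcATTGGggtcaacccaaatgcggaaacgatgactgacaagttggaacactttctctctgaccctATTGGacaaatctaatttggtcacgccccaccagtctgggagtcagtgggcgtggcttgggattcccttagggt
Cox7a2 promoter, chr9:79759854-79760103, minus strand: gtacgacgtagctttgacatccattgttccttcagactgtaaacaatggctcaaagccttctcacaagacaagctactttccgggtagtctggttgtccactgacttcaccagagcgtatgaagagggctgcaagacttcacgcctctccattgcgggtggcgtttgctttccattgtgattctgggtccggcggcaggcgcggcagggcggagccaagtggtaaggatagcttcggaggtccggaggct
The Cox7a1 window held CCAAT 2 times, as ATTGG, and the Cox7a2 window held none of the strings searched.

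Cox6b2, an isoform of subunit 6b known from testis, measured 5.75 and 5.89 at day 6, 5.76 and 5.76 at day 9, and 5.87 and 5.64 at day 12 in WT. KO arrays of Cox6b2 read 6.49 and 6.72, 6.49 and 6.31, and 5.38 and 5.57 in the same order. The KO arrays of days 6 and 9 stood above every WT array, and at day 12 they lay below the WT arrays of that day. Cox6b2 differed at days 6, 9 and 12 by 0.79 (SE 0.12, adjusted p = 0.0144), 0.64 (SE 0.12, adjusted p = 0.00207) and -0.28 (SE 0.12, adjusted p = 0.12), with an interaction adjusted p of 0.00281. Its day 6 call ended without WT replicate 1 (0.72) or KO replicate 1 (0.90) or 2 (0.67) of that day, and with the smooth muscle covariate (0.76). Cox6c, a small subunit with no isoforms in the family, measured 11.61 and 11.48 at day 6, 11.80 and 11.69 at day 9, and 11.70 and 11.73 at day 12 in WT. KO arrays of Cox6c read 11.30 and 11.43, 11.24 and 11.20, and 11.20 and 10.96 in the same order. WT and KO were apart at each day. Cox6c fell at days 9 and 12, with differences of -0.52 (SE 0.10, adjusted p = 0.00284) and -0.64 (SE 0.10, adjusted p = 0.000766). Cox7b, another small subunit, measured 10.89 and 10.80 at day 6, 11.03 and 10.95 at day 9, and 10.94 and 11.00 at day 12 in WT. KO arrays of Cox7b read 10.66 and 10.71, 10.76 and 10.69, and 10.58 and 10.38 in the same order. KO was below WT at each day. Cox7b stood at -0.26 (SE 0.10, adjusted p = 0.058) at day 9 and fell, with a difference of -0.49 (SE 0.10, adjusted p = 0.00218) at day 12. Ndufa4 fell, at -0.47 (SE 0.11) at day 12.

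The remaining genes of complex IV passed at no day in KO against WT. Cox4i1, the usual form of subunit 4, ran from 9.39 to 9.67 in WT and from 9.16 to 10.17 in KO, and stood at 0.46 (SE 0.18) at day 9 and -0.13 (SE 0.18) at day 12. Cox4i2, the form known from lung, ran from 5.94 to 6.10 in WT and from 5.98 to 6.28 in KO. Cox6a1 ran from 10.75 to 11.16 in WT and from 10.48 to 11.25 in KO, and Cox6a2, the muscle form, from 6.34 to 6.53 and from 6.37 to 6.83. Cox6b1, the partner of Cox6b2, ran from 11.27 to 11.41 in WT and from 11.04 to 11.44 in KO. Cox8a ran from 9.74 to 10.14 and from 9.38 to 10.07. In Cox4i1, Cox6a1, Cox6b1 and Cox8a the lowest KO value was that of the second mouse of day 12. Cox5a and Cox5b stood at -0.30 and -0.25 at day 12. Cox7b2, Cox8b and Cox8c had means under 5.01, the 25th percentile of all genes, so a level near background cannot be told from expression and no fold is given.

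**Figure D4:**
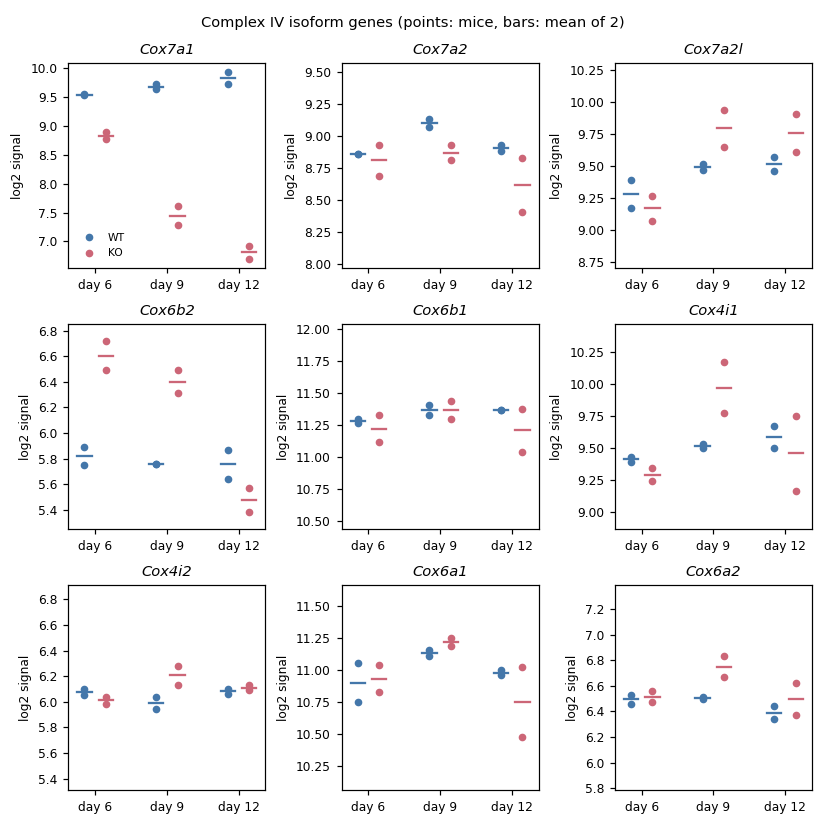
Log2 signal (vertical axis, own range per panel) of 8 isoform genes of complex IV and of the relative Cox7a2l by day, with 1 point per mouse and a bar at the mean of 2. Cox7a1 dropped from 8.77 and 8.89 at day 6 to 6.70 and 6.92 at day 12 in KO, Cox6b2 was above WT at days 6 and 9, and the other panels show overlap or gaps that did not pass.

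Complex V, the ATP synthase, had 7 falls of 17 at day 9 (median -0.28) and 11 at day 12 (median -0.45), and the other genes did not pass. Among all genes 17.1% fell at day 9 and 13.7% at day 12. In the catalytic head, the alpha, beta and gamma subunits fell at both days. Atp5c1, the gamma subunit that turns inside the head, measured 11.66 and 11.62 at day 6, 11.74 and 11.74 at day 9, and 11.67 and 11.62 at day 12 in WT. KO arrays of Atp5c1 read 11.48 and 11.53, 10.95 and 10.88, and 10.87 and 10.93 in the same order. WT and KO were apart at each day, and KO changed between days 6 and 9. Atp5c1 differed at days 6, 9 and 12 by -0.14 (SE 0.08, adjusted p = 0.589), the smallest p of complex V at day 6 (none of 17 called by limma, 0 with an unadjusted p under 0.05), -0.83 (SE 0.08, adjusted p = 2.37e-05) and -0.74 (SE 0.08, adjusted p = 4.12e-05). Atp5a1, the alpha subunit, measured 12.19 and 12.14 at day 6, 12.48 and 12.42 at day 9, and 12.37 and 12.34 at day 12 in WT. KO arrays of Atp5a1 read 12.04 and 12.14, 11.98 and 11.95, and 11.82 and 11.47 in the same order. KO overlapped WT at day 6 and was below it afterwards. Atp5a1 fell at days 9 and 12, with differences of -0.49 (SE 0.11, adjusted p = 0.0064) and -0.71 (SE 0.11, adjusted p = 0.000511). Atp5b, the catalytic beta subunit, fell at both days, at -0.44 and -0.54. Atp5e, the epsilon subunit, stood at 0.26 at day 9 and fell at day 12, at -0.65, while Atp5d, the delta subunit, stood at -0.27 and 0.18 and did not pass.

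The membrane part includes the ring of c subunits, for which Atp5g1, Atp5g2 and Atp5g3 encode the same mature protein. Atp5g1, the first of these genes, measured 11.82 and 11.74 at day 6, 11.73 and 11.68 at day 9, and 11.63 and 11.67 at day 12 in WT. KO arrays of Atp5g1 read 11.78 and 11.69, 11.02 and 11.32, and 11.28 and 11.30 in the same order. KO dropped under WT at days 9 and 12. Atp5g1 fell at days 9 and 12, with differences of -0.54 (SE 0.11, adjusted p = 0.00253) and -0.36 (SE 0.11, adjusted p = 0.0255). Atp5g3, the last of them, measured 10.97 and 10.91 at day 6, 11.19 and 11.18 at day 9, and 11.10 and 11.14 at day 12 in WT. KO arrays of Atp5g3 read 10.77 and 10.87, 10.76 and 10.74, and 10.67 and 10.31 in the same order. No day overlapped, with 10.31 in the second KO mouse of day 12 as the lowest value. Atp5g3 fell at days 9 and 12, with differences of -0.43 (SE 0.11, adjusted p = 0.0128) and -0.63 (SE 0.11, adjusted p = 0.0013). Atp5g2 fell at day 9 (-0.45) and stood at -0.21 at day 12. The day 12 call of Atp5g1 ended without any 1 array of that day (-0.38 to -0.34), and the day 9 call of Atp5g3 ended without WT replicate 1 (-0.43), WT replicate 2 (-0.44) or KO replicate 1 (-0.44) of that day.

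Atp5j2, the f subunit of the membrane part, measured 11.06 and 10.94 at day 6, 11.13 and 11.13 at day 9, and 11.23 and 11.27 at day 12 in WT. KO arrays of Atp5j2 read 10.85 and 11.03, 11.06 and 10.63, and 10.57 and 10.26 in the same order. KO was the lower group at day 12, and at day 9 its first mouse was only just under WT. Atp5j2 stood at -0.28 (SE 0.14, adjusted p = 0.172) and fell, with a difference of -0.84 (SE 0.14, adjusted p = 0.00108). Atp5o, the stalk protein that confers oligomycin sensitivity, measured 9.94 and 10.00 at day 6, 10.04 and 10.06 at day 9, and 10.28 and 10.19 at day 12 in WT. KO arrays of Atp5o read 9.80 and 9.90, 9.93 and 9.65, and 9.75 and 9.53 in the same order. KO lay below WT at each day. Atp5o stood at -0.26 (SE 0.11, adjusted p = 0.104) and fell, with a difference of -0.60 (SE 0.11, adjusted p = 0.00187). Atp5pb, the b subunit of the stalk, fell at both days, at -0.35 and -0.45, and Atp5k (-0.70) and Atp5j (-0.38) fell at day 12. Atp5h, Atp5l, Atp5md and Atp5mpl passed at neither day, with differences of -0.07, -0.29, -0.05 and -0.29 at day 12.

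The relatives of subunits that the prefixes take in were chosen for description after their values were seen. Ndufa4l2, a relative of Ndufa4 known to respond to low oxygen, measured 5.38 and 5.66 at day 6, 5.26 and 5.65 at day 9, and 5.55 and 5.41 at day 12 in WT. KO arrays of Ndufa4l2 read 5.37 and 5.66, 6.01 and 5.88, and 5.73 and 5.62 in the same order. KO exceeded WT at days 9 and 12 and overlapped it at day 6. Ndufa4l2 rose by 0.49 (SE 0.15, adjusted p = 0.0296) at day 9 and stood at 0.20 (SE 0.15) at day 12. That call ended without WT replicate 1 (0.29) or KO replicate 1 (0.42) or 2 (0.56) of day 9. Cox7a2l, which joins complexes III and IV into supercomplexes, ran from 9.17 to 9.57 in WT and from 9.07 to 9.94 in KO. Cox7a2l stood at 0.30 (SE 0.13) and 0.24 (SE 0.13) at days 9 and 12 and did not pass.

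Within genotypes, the change over days was tested separately. In WT 0 of the 90 genes changed over days with limma (lowest adjusted p = 0.319, 8 genes with an unadjusted p under 0.05), where 0.0201% of all genes were called. In KO 38 of the 90 changed, and 37.6% of all genes did. From KO day 6 to day 9, 14 fell and 5 rose, where 14.5% of all genes fell and 10% rose (24.5% in all). The rises were those of Ndufa6 (0.57), Ndufa7 (0.60), Uqcrq (0.80), Cox4i1 (0.68) and Cox7a2l (0.63), and the falls were led by Cox7a1 (-1.39), Ndufs1 (-0.70), Uqcrc2 (-0.59) and Atp5c1 (-0.59). From KO day 9 to day 12, 14 fell and 13 stood above 0 without a call, where 8.81% of all genes fell and 14.1% rose (22.9% in all). All 17 genes of complex IV had a difference below 0, as had 10802 of all 19938 genes. In complex IV the first KO mouse was higher than the second in 14 of 17 genes at day 9, and in 14 of 17 at day 12. Cox6b2 differed by -0.92 (SE 0.12), Cox7a1 by -0.63 (SE 0.13), Ndufaf2 by -0.47 (SE 0.09) and Sdhb by -0.33 (SE 0.11). Both steps share the KO arrays of day 9.

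Single mice moved these counts. From day 9 to day 12 the fit called 3 genes when KO day 9 replicate 1 was left out, 22 for KO day 9 replicate 2, 39 for KO day 12 replicate 1, 5 for KO day 12 replicate 2 and 9 for any 1 of the 4 WT arrays of days 9 and 12, in place of 14. It was 27 with quantile normalization and 8 with arrays centred on their medians. From day 6 to day 9 it called 11 and 12 genes, in place of 19, when the first or the second KO array of day 6 was left out. The interaction count of 21 was 37 without KO day 12 replicate 1, 8 without KO day 6 replicate 2, 11 without KO day 6 replicate 1, 11 and 12 without WT day 6 replicates 1 and 2, 12 and 11 without WT day 9 replicates 1 and 2, and 12 and 10 without WT day 12 replicates 1 and 2. Fitted on only the 4 arrays of a day, the calls of Uqcrfs1 at day 9 and of Sdhc, Cycs, Ndufb10, Ndufaf4, Ndufaf5 and Atp5g1 at day 12 ended as well. The smooth muscle covariate ended those of Cycs (-0.37), Atp5g1 (-0.28), Ndufa7 (0.39), Ndufaf4 (-0.44) and Ndufaf5 (-0.37) at day 12, and quantile normalization ended that of Ndufb10 (-0.35).

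Days 9 and 12 used different mice of both genotypes. Of the 90 genes 25 fell at both days, against 9.45% of all genes, 3 were called lower at day 9 only and 22 at day 12 only. Across the 90 genes the day 9 and day 12 differences correlated at r = 0.79, as a description over genes that share arrays, and over all 19938 genes r was 0.75. Within complex V r was 0.11 over 17 genes: Atp5g1 and Atp5c1 were lower at day 9 than at day 12, and Atp5j2, Atp5k and Atp5e had their lower value at day 12. The day 12 difference was tested against the day 9 difference, which called 4 of the 90 genes, where 6.08% of all genes were called, and the day 9 against the day 6 difference called 11, where 12.7% of all genes were called. These last tests share the arrays of day 9.

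Other mitochondrial genes were read in lists. For comparison, 17.1% of all genes fell and 12.6% rose at day 9, and 13.7% fell and 13.7% rose at day 12. Of 18 genes of pyruvate oxidation and the citric acid cycle, which deliver NADH and succinate to the chain, 14 fell at day 9 (median -0.71) and 15 at day 12 (median -0.64). Idh3a, the catalytic subunit of NAD-dependent isocitrate dehydrogenase, fell, at -1.18 (SE 0.10) and -1.06 (SE 0.10). Pdha1 of pyruvate dehydrogenase had its larger fall at day 9, at -1.07 (SE 0.10), and Fh1, fumarase, at day 12, at -0.90 (SE 0.11). Of 18 electron carriers and other entry points 8 fell and 3 rose at day 9, and 8 fell and 2 rose at day 12. Etfdh, which feeds electrons from fatty acid oxidation to ubiquinone, fell, at -0.87 and -0.64, as did Prodh, proline dehydrogenase, at -1.14 and -1.10, and Suox, sulfite oxidase, rose by 1.80 and 1.21. Of 29 assembly factors of complexes II to V 11 fell and 3 rose at day 9 and 9 fell and 1 rose at day 12, with Atpaf1 of complex V at -0.87 and -0.63, Bcs1l of complex III at -0.61 and -0.97, and Surf1 of complex IV higher by 0.57 at day 12. Of 16 genes of nucleotide transport and cristae 7 fell at day 9, and 5 fell and 1 rose at day 12. The transporter Slc25a5 fell, at -0.71 and -0.45, the fusion protein Opa1 fell at day 9, at -0.84, and Slc25a4, the transporter form known from muscle, rose by 0.94 at day 12. Of the 15 smooth muscle markers 1 was called higher at that day, with a median difference of 0.48; their part in the Slc25a4 value was not tested.

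Of 15 nuclear regulators of mitochondrial gene expression 6 fell at day 9, and 6 fell and 2 rose at day 12. The shares of all genes were 17.1% lower and 12.6% higher at day 9, and 13.7% each way at day 12. Ppargc1a, the coactivator of mitochondrial biogenesis, measured 9.95 and 9.80 in WT at day 6 against 9.20 and 9.09 in KO, 9.81 and 9.87 against 5.83 and 6.45 at day 9, and 9.91 and 10.23 against 5.80 and 6.75 at day 12. The KO arrays of days 9 and 12 stood far under all others. Ppargc1a differed by -0.73 (SE 0.26, adjusted p = 0.276), -3.70 (SE 0.26, adjusted p = 1.95e-06) and -3.80 (SE 0.26, adjusted p = 1.12e-06). Esrrg, an orphan receptor that works with it, fell, at -0.97 and -1.10, Ppara fell, at -1.41 and -1.01, and Esrra stood at 0.07 at day 9 and fell at day 12, at -1.09, while Myc rose by 0.53 at day 12. Of 20 genes of mitochondrial DNA maintenance and transcription 8 fell and 3 rose at day 9 and 5 fell and 1 rose at day 12, with Tfam, which packages mitochondrial DNA, at -0.77 (SE 0.16) and -0.78 (SE 0.16).

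Import and translation genes gave more rises than falls at day 9. Of 23 import genes 11 rose and 4 fell at day 9 (median 0.33), and 6 rose and 4 fell at day 12 (median -0.01). Pmpca, a subunit of the presequence protease, rose at each day, by 0.45, 0.62 and 0.69, its partner Pmpcb fell at days 9 and 12, at -0.38 and -0.69, and Tomm5 of the outer membrane pore rose by 0.99 at day 9. Of 77 mitochondrial ribosomal proteins 21 rose and 10 fell at day 9 (median 0.16), and 7 rose and 12 fell at day 12 (median -0.05). Over all genes 12.6% rose and 17.1% fell at day 9, and 13.7% rose and 13.7% fell at day 12. The ribosomal counts of day 12 lay near these shares. Mrpl54 rose by 1.31 (SE 0.11) and 0.54 (SE 0.11), and Mrps31 fell, at -0.86 (SE 0.08) and -0.68 (SE 0.08). No list was tested against another.

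**Figure D5:**
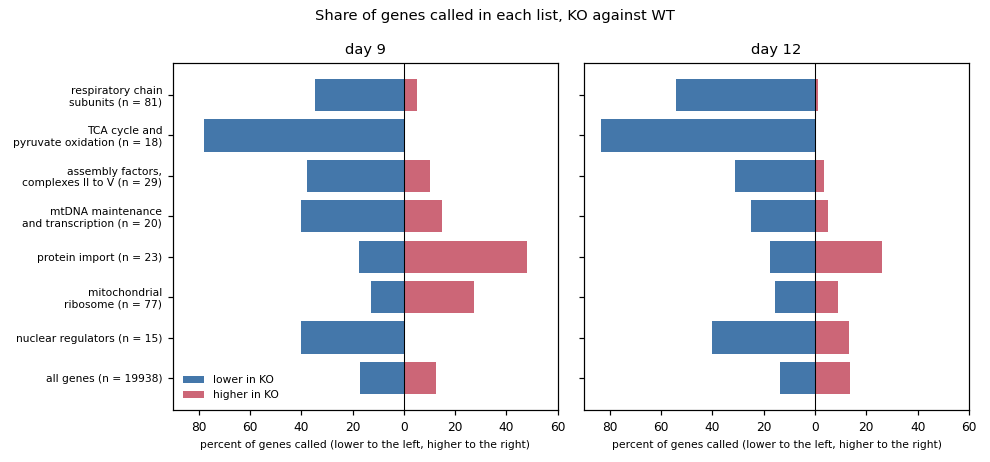
Share of genes called lower (blue, to the left) and higher (red, to the right) in KO against WT at day 9 and day 12, in percent of the genes of each list, with all 19938 genes at the bottom. The citric acid cycle list had 14 and then 15 of 18 genes lower, the respiratory chain subunits 28 and then 44 of 81, and import was the list shown with the most rises for its size, 11 of 23 at day 9.

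Promoter strings were counted over all genes of the module with a RefSeq entry. Of the 90 genes 74 matched, with 79 promoters, and each window of 250 bases was searched on both strands for GCATGCGC (NRF1), CCGGAAG (ETS), TCAAGGTCA (ERR), AAGATGGC (YY1) and CCAAT (NFY). GCATGCGC was found in 10 of 79 (12.7%), against 2.26% of all 32851 mouse promoters of this length. CCGGAAG was found in 13 (16.5%, against 6.91%), TCAAGGTCA in 1 (1.27%, against 0.387%), AAGATGGC in 1 (1.27%, against 1.56%) and CCAAT in 34 (43%, against 33.8%). Among 47 promoters of genes that fell at day 9 or 12 GCATGCGC was in 12.8%, and among the 32 others in 12.5%. CCGGAAG was in 10.6% of the former and 25% of the latter, and CCAAT in 36.2% and 53.1%. These shares are descriptions, with no test.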

How the data were processed

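The authors deposited 1 log2 value per probe set and array, and the unit was read from the values, which ran from 2.29 to 14.13. How background correction, summarization and normalization were done is not given in the sources used here; limma and R 3.5 are named in the submitters' processing notes with no role. Of 35556 probe sets, 21789 had a single gene symbol, 1621 had several and 12146 had none here, so genes were named from the platform annotation, whose symbols can be old. The probe set of highest mean was kept per gene (19938 genes); 18 of the 90 genes had several. A probe set may also pick up near-identical copies and pseudogenes, which these values cannot separate.

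A mean for each of the 6 groups was fitted to all 12 arrays with limma 3.58.1 in R 4.3.3 (lmFit and eBayes, 6 residual and 5.23 prior degrees of freedom), with Benjamini-Hochberg adjustment over all genes and calls at 0.05. Moderated F tests served for change over days and for the interaction of genotype with day. Folds and percents of WT were computed from the fitted log2 differences, since the authors deposited none. The fit was tested on simulated data. With 12 arrays, the median SE of a difference at a day was 0.11. The p-values set a difference against the spread between single mice of a group. That spread was pooled over the 6 groups and moderated across genes.

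Values in every array are given for complex II and Cycs, for up to 3 rises and 3 falls per complex and day (and on average over days) that were called with KO arrays on one side of WT, for the 5 smallest interaction p-values and, where nothing was called, for the smallest p. Isoform families of complex IV are given by their ranges, and other genes by their differences, to account for every gene of the module. In other lists up to 3 called genes with the largest change could be named. Myc, Cyc1, Pmpcb, Alpi, Apoa4 and Mgam were named after their values were seen. Etfdh and Surf1 also lie outside that rule. Larger called changes at day 9 or 12 in their lists, such as those of Coq5, Coq8a, Sqor and Sco1, were not named. The members and lists were chosen with earlier results of these data known.

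Alternatives were quantile normalization, centring of arrays, other rules for probe sets and for dim genes, a replicate block, each array left out in turn, and a smooth muscle covariate chosen after seeing the data. Where an array was left out, the lone array of its group was assumed to vary like the other groups. Replicate numbers were checked for pairing: the deviations of equally numbered KO and WT arrays correlated at 0.18, -0.09 and 0.11 at days 6, 9 and 12, so the numbers were not taken as pairs. Promoters came from RefSeq (GRCm38.p6), matched by the Entrez gene identifier of the probe set kept.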

Additional observations from a re-analysis of the deposited data

Results flagged for a closer look

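The limma interaction test, with Benjamini-Hochberg adjustment over 19938 genes, called 21 of the 90 genes, where it called 18.5% of all genes. By that test their KO minus WT difference was not the same at the 3 days. The count moved when single arrays were left out, as described above. Of the 21 genes, 16 are among the genes chosen by the naming rule. In complex II the adjusted p was 0.00133 for Sdha, 0.00477 for Sdhd, 0.026 for Sdhc and 0.0289 for Sdhb, with each gene's KO arrays closer to WT at day 6 than at days 9 and 12. In complex I it was 0.000324 for Ndufs1, 0.00556 for Ndufa9, 0.00904 for Ndufab1 and 0.0269 for Ndufb5. In complex III it was 0.0105 for Uqcrc2, 0.0368 for Uqcrfs1 and 0.0465 for Uqcrc1. In complex V it was 0.00361 for Atp5c1, 0.0352 for Atp5a1 and 0.0444 for Atp5j2. In complex IV it was 3.58e-05 for Cox7a1, whose difference went from -0.72 to -3.01, and 0.00281 for Cox6b2, which stood at 0.79 at day 6 and -0.28 at day 12. The other 5 were Ndufs5 (adjusted p = 0.0177), Ndufs8 (0.0194), Ndufa10 (0.0286), Atp5b (0.0386) and Atp5e (0.0405). With 2 mice per group no single sample was tested for standing apart from its group.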

How the results depend on the processing

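None of the named calls changed direction under an alternative, but the complex III median at day 9 changed sign without the second KO mouse of that day. Where both KO arrays lay on one side of both WT arrays, leaving out 1 array could not change the direction of that day's difference. An array left out of another day leaves a day's difference as it was. The naming rule took the largest changes in these same data. In the next counts, a fit is counted once for each call. The 81 calls of 31 genes chosen by the naming rule were kept in 894 of 972 fits with 1 array left out and in 602 of 619 other fits. Leaving out 1 array gave 0 to 2 genes at day 6, 22 to 41 at day 9, 34 to 55 at day 12, 47 to 58 on average over days, 11 to 24 from KO day 6 to 9, 3 to 39 from KO day 9 to 12 and 8 to 37 for the interaction; the count for WT over days was 0 in each. Complex medians then ran from -0.3 to -0.16 at day 9 and -0.56 to -0.35 at day 12 (I), from -0.2 to -0.08 at day 6 and -0.9 to -0.75 at day 12 (II), from -0.16 to 0.07 and -0.5 to -0.28 (III), and from -0.41 to -0.03 at day 12 (IV).

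With quantile normalization 27 genes were called from KO day 9 to 12, the complex I median at day 9 was -0.15, and the complex II medians at days 6 and 9 were -0.19 and -0.60; with centred arrays the first count was 8. With the smooth muscle covariate the counts were 0 at day 6 and 10 for the interaction. With the replicate block the count at day 6 was 1, Cox7a1 losing its call, and 1 of the 81 calls was lost in all; the correlations behind the pairing check gave no pairs. The cause of these shifts was not tested. With 2 arrays per group, no difference of the 90 genes nearer to 0 than -0.26 (Ndufa12 at day 12) was called at a single day; calls of single genes outside the naming rule were not followed through the alternatives, except that of Ndufa4l2 at day 9 (0.29 to 0.69 with 1 array left out), added after seeing the data.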
